A study of Mus musculus with 7 samples.

Results

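A set of 10 genes of cyclic AMP (cAMP) signalling was followed in regulatory T cells (Tregs) of skin and of skin-draining lymph nodes (SDLN): the prostaglandin receptors Ptger2, Ptger4 and Ptgir, the phosphodiesterases Pde3b, Pde4a, Pde4b, Pde4d and Pde7a, and the transcription factors Crem and Creb1. They were taken by symbol, as a set proposed with earlier results of these data known, and all 10 were among the 24084 gene symbols of the count table and among the 11376 genes that passed the low-count filter. The libraries were made from Tregs sorted from mice aged 6 weeks of the Foxp3-DTR strain, in which the Foxp3 locus, the gene of the Treg lineage factor, also drives a diphtheria toxin receptor and a green fluorescent protein. All mice carried this allele, no group was treated, and the skin was in telogen, when hair follicles rest. There were 3 SDLN libraries and 4 skin libraries, and the question posed by the design is how the Treg transcriptomes of the tissues differ. Nothing in the labels says that libraries came from separate animals, so p-values measure only the spread between these libraries.

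Cyclic AMP is made by adenylyl cyclases when receptors coupled to the stimulatory G protein, such as the prostaglandin E2 receptors EP2 (Ptger2) and EP4 (Ptger4) and the prostacyclin receptor IP (Ptgir), bind their ligands. It activates protein kinase A, which phosphorylates CREB (Creb1) and its relative CREM (Crem) at cAMP response elements. Phosphodiesterases remove cAMP, and the Pde4 family, Pde3b and Pde7a are among the forms known from T cells. In T cells cAMP restrains receptor signalling, Tregs are known to hold high levels of it, and an internal promoter of Crem gives ICER, a short repressor that is itself induced by cAMP. Reads counted per gene cannot tell ICER from the longer CREM forms, nor one Pde4 variant from another.

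Crem, Pde4d and Pde4a were higher in skin Tregs than in SDLN Tregs, at 10.8, 4.27 and 23.1 times the SDLN level, and no gene of the set was called lower. Creb1, Pde4b, Pde3b, Pde7a and the 3 receptors did not pass the test. So 3 of 10 genes were called higher, where 3.28% of all genes tested were called higher and 3.96% lower, 7.24% in all (edgeR's quasi-likelihood test, Benjamini-Hochberg adjusted p under 0.05). The count of genes called lower was 0 also at an unadjusted p under 0.05 in edgeR, DESeq2 and limma-voom. The skin and SDLN libraries did not overlap for the same 3 genes, with skin above, against 10.1% of all genes tested (26.6% in either direction). The median log2 fold change of the 10 genes was 0.52, and that of all genes tested was 0.05. Each value is a sum over the sorted cells, in which fewer expressing cells and less RNA per cell cannot be told apart.

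**Figure D1:**
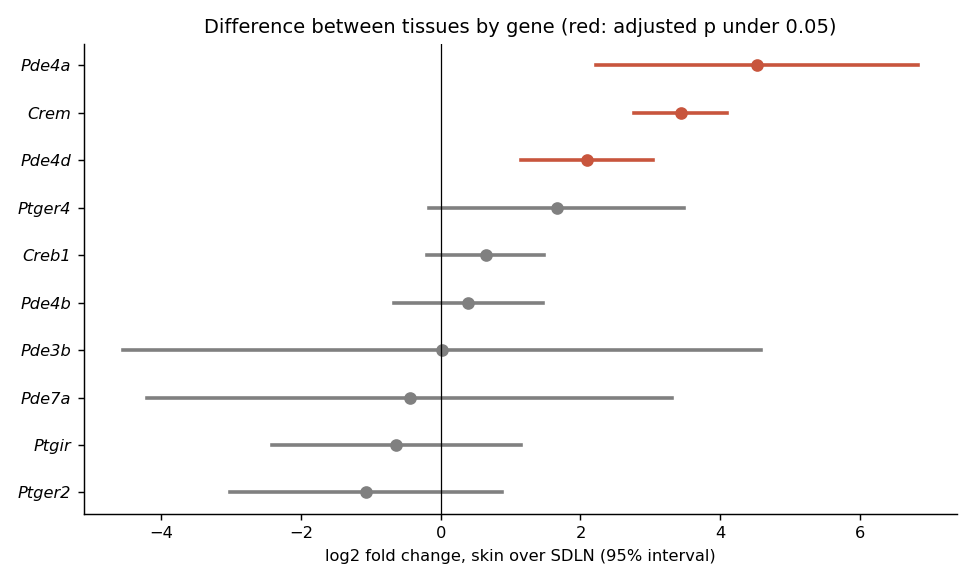
The log2 fold change of skin over SDLN (x axis) is drawn for each of the 10 genes (y axis), with the 95% interval of the edgeR fit as a line. Crem, with the narrowest interval (2.77 to 4.10), Pde4a and Pde4d lie wholly above 0, and the intervals of the other genes span 0, that of Pde3b from -4.54 to 4.59.

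The promoter sequences are shown because the genes that moved include the cAMP-responsive factor Crem and members of 1 enzyme family, Pde4, of which Pde4a and Pde4d passed the test and Pde4b did not. RefSeq (GRCm38.p6) promoters of 7 of the 10 genes were searched, 12 promoters in all. Pde3b and Pde7a had no listed promoter, and Crem was left out of the search, so nothing is said of its promoters. The 250 bases upstream of each start were searched on both strands for the full cAMP response element TGACGTCA and for its core, TGACG or CGTCA, which the full element contains. None of the 12 windows held the full element, which 1.55% of the 32851 listed promoters hold. The core stood in 1 of 3 Pde4a windows and in 1 of 4 Pde4b windows, 2 of 12 in all, against 17.8% of all listed promoters. The Pde4a stretch is chr9:21183851-21184100 on the plus strand, with the core, in capitals, beginning 50 bases before the start. The Pde4d stretch is chr13:108653927-108654104 on the plus strand, the part of the sole listed window before the first annotated exon in that window. It has no core. The Pde4b stretch is the core with its flanks, chr4:102421511-102421535 on the plus strand, 34 bases before that start. This core lies within an exon that the annotation gives to another Pde4b transcript, which begins just upstream of it. Every printed stretch lies inside the annotated span of its gene, so these starts are internal ones. The spans begin at 21165714 for Pde4a, 108449948 for Pde4d and 102087543 for Pde4b.
Pde4a: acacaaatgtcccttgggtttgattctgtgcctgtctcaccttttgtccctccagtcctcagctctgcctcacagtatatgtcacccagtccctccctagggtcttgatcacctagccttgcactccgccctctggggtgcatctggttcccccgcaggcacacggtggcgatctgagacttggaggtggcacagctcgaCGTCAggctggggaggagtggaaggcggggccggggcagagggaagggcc
Pde4d: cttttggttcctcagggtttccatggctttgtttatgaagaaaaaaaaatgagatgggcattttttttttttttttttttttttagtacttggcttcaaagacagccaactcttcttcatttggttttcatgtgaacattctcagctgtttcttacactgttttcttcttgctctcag
Pde4b: tttggctgcaCGTCAattttctcat
The core thus occurred beside a gene that rose and a gene that did not pass, and was not found in the Pde4d window. A match describes these letters alone, and the counts do not show which promoter was used.

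Total gene counts were 13123241 to 14785751 in SDLN and 11009609 to 13921238 in skin, so that 3 counts stand for 0.204 to 0.276 CPM (counts scaled to a common library size), and SDLN libraries held 13408 to 13845 detected genes against 9690 to 12639. Skin libraries correlated with each other (0.624 to 0.699, log2 CPM across genes) about as they did with SDLN libraries (0.617 to 0.700), and SDLN libraries at 0.964 to 0.981. Summed T cell and Treg markers were at 9152 to 11414 CPM in SDLN and 8914 to 14148 CPM in skin. Foxp3 was present in every library. It was higher in every skin library (means of 89.0 CPM in SDLN and 169 CPM in skin) without passing the test (edgeR adjusted p = 0.242). Members of that list moved apart: Ctla4 (651 and 3820 CPM, SDLN and skin means) and Ikzf2 (1320 and 2938 CPM) were called higher, whereas Cd3e (1848 and 882 CPM), Cd3d (1081 and 580 CPM) and Cd4 (738 and 466 CPM) were lower in every skin library without passing the test. Of the 13 macrophage and dendritic cell markers in the table, 3 were higher in every skin library, the list summing to 14.4 to 24.3 CPM in SDLN and 206 to 861 CPM in skin, highest in skin 4. Lyz2 (11.6 and 194 CPM) and Cd209a (0.136 and 82.7 CPM, with 265 CPM in skin 4) were called higher. Csf1r was at 80.7, 0, 27.4 and 0.785 CPM in skin 1 to 4 and at most 0.463 CPM in SDLN, and Cd207 was at 0 in all libraries. Keratinocyte markers summed to 718.5 CPM and fibroblast and endothelial markers to 2071 CPM in skin 3, with at most 20.7 and 47.6 CPM in the other skin libraries. In SDLN the keratinocyte sum was at most 2.65 CPM, and the fibroblast and endothelial sum was 388 to 549 CPM, nearly all of it Pecam1 (488 and 40.8 CPM, called lower in skin). Skin 1 carries a tissue tag that names the lymph node, although its title and source name skin. It was kept as skin, with Fos at 1895 CPM (at most 5.95 CPM in SDLN) and Pecam1 at 16.2 CPM (at least 388 CPM in SDLN). SDLN 3 was the sole library with substantial counts of the Y-linked gene Ddx3y (3877, at most 2 elsewhere). Xist, expressed from the inactive X chromosome, was at 4 counts in SDLN 3 and at 4653 to 11758 in the other libraries. By these genes, sex was not balanced over the tissues.

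The prostaglandin receptors did not differ beyond the spread of the skin libraries. Ptger2, the EP2 receptor (chromosome 14, 44988195 to 45003820), was at 81.1, 70.8 and 103 CPM in SDLN 1 to 3 and at 45.4, 8.41, 10.6 and 97.8 CPM in skin 1 to 4. Skin 2 and skin 3 were far below every SDLN library, skin 1 was below them by less, and skin 4 lay within their range. SDLN averaged 84.9 ± 16.3 CPM (SD, n = 3) and skin 40.5 ± 41.8 CPM (SD, n = 4), with a log2 fold change of -1.07 (SE 0.84, 95% interval -3.01 to 0.88, edgeR adjusted p = 0.609).

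Ptger4, the EP4 receptor (chromosome 15, 5206661 to 5244187), was at 30.3, 39.2 and 47.3 CPM in SDLN 1 to 3 and at 22.6, 217, 49.1 and 203 CPM in skin 1 to 4. The skin libraries split, with skin 2 and skin 4 well above all SDLN libraries, skin 3 just above the highest and skin 1 below the lowest. The means were 38.9 ± 8.47 CPM (SD, n = 3) and 123 ± 101 CPM (SD, n = 4), with a log2 fold change of 1.66 (SE 0.79, 95% interval -0.17 to 3.49, edgeR adjusted p = 0.329). A rise of up to 11.2-fold is within that interval, as is no change. An exon of Ptger4 overlaps one of the protein-coding gene Ttc33 on the opposite strand, and the strand setting of the counting is not given. Ttc33 had a mean of 113 CPM in SDLN and 68.1 CPM in skin.

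Ptgir, the prostacyclin receptor (chromosome 7, 16906490 to 16910905), was at 25.8, 41.5 and 25.9 CPM in SDLN 1 to 3 and at 10.9, 44.4, 9.87 and 14.8 CPM in skin 1 to 4. Skin 2 was the highest of all 7 libraries, and the other skin libraries were below every SDLN library. SDLN averaged 31.1 ± 9.02 CPM (SD, n = 3) and skin 20.02 ± 16.4 CPM (SD, n = 4), a log2 fold change of -0.63 (SE 0.77, 95% interval -2.42 to 1.15, edgeR adjusted p = 0.774).

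Which receptor led differed between skin libraries. Per kilobase of annotated exon, the level of Ptger4 divided by that of Ptger2 was 0.292, 0.432 and 0.359 in SDLN 1 to 3. The same ratio in skin 1 to 4 was 0.390, 20.1, 3.63 and 1.63. Ptger2 was thus above Ptger4 in all SDLN libraries and in skin 1, and below it in skin 2, 3 and 4. Of the summed level per kilobase of the prostaglandin E2 and prostacyclin receptors, Ptger4 made up 15.2% to 19.8% in SDLN, 19.7% in skin 1 and 42.2% to 55.9% in the other skin libraries. The sum itself was 29.9 to 35.9 CPM per kilobase in SDLN and 17.3 to 58.3 in skin. Among the other prostanoid receptors, 6 in number, 2 were tested and neither passed in edgeR. At an unadjusted p under 0.05 the numbers higher and lower were 0 and 0 in edgeR, 1 and 0 in DESeq2 and 0 and 1 in limma-voom. The EP1 receptor gene Ptger1 was at 8.75 ± 2.25 CPM (SD, n = 3) and 26.3 ± 22.1 CPM (SD, n = 4) (log2 fold change 1.58, edgeR adjusted p = 0.438). The thromboxane receptor gene Tbxa2r was at 14.6, 14.1 and 11.5 CPM in SDLN 1 to 3 and at 0, 7.60, 0 and 0 CPM in skin 1 to 4 (log2 fold change -2.81, edgeR adjusted p = 0.629). Its libraries did not overlap, with skin below, as was so for 16.5% of all genes tested. Tbxa2r was called lower without skin 2 and by limma-voom with a variance weight per tissue.

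Among the phosphodiesterases, 2 genes of the Pde4 family rose. Pde4d (chromosome 13, 108449948 to 109953461), a long gene with many variants, was at 40.8, 45.1 and 49.0 CPM in SDLN 1 to 3 and at 121, 319, 153 and 174 CPM in skin 1 to 4. Every skin library was above every SDLN library, and skin 2 was the highest. The means were 44.96 ± 4.14 CPM (SD, n = 3) and 192 ± 87.7 CPM (SD, n = 4), a log2 fold change of 2.09 (SE 0.41, 95% interval 1.16 to 3.03, edgeR adjusted p = 0.0363).

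Pde4a (chromosome 9, 21165714 to 21213248) was at 2.103, 3.31 and 1.24 CPM in SDLN 1 to 3, from 31, 48 and 16 counts, and at 23.4, 25.6, 30.8 and 126 CPM in skin 1 to 4. All skin libraries were above all SDLN libraries, but skin 4 stood apart from the other skin libraries, which lay close together. Skin exceeded SDLN by a log2 fold change of 4.53 (SE 0.9956, 95% interval 2.23 to 6.83, edgeR adjusted p = 0.0380), with means of 2.22 ± 1.04 CPM (SD, n = 3) and 51.4 ± 49.7 CPM (SD, n = 4). Without skin 4 it was 3.56 and did not pass (edgeR adjusted p = 0.0731). Neither Pde4a nor Pde4d passed without SDLN 1, SDLN 2 or SDLN 3 (edgeR adjusted p 0.165 to 0.176), although their log2 fold changes were then 4.23 to 4.92 and 2.01 to 2.15. Macrophage and dendritic cell markers, with the sums given above, were also higher in skin and highest in skin 4. Their part in the rise of Pde4a and Pde4d was not tested.

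Pde4b (chromosome 4, 102087543 to 102607259), the most abundant of the set per kilobase in SDLN, was at 261, 250 and 262 CPM in SDLN 1 to 3 and at 639, 336, 157 and 222 CPM in skin 1 to 4. The SDLN libraries were nearly equal, while the skin libraries lay on both sides of them. Its log2 fold change was 0.39 (SE 0.46, 95% interval -0.67 to 1.46, edgeR adjusted p = 0.763), with means of 258 ± 6.27 CPM (SD, n = 3) and 339 ± 214 CPM (SD, n = 4). It turned to -0.11 without skin 1, the library with the highest value.

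Within the Pde4 family, Pde4b held less of the summed level in every skin library than in any SDLN library, by little in skin 1 and by far more in skin 2, 3 and 4. Per kilobase of exon, Pde4b made up 85.8%, 83.2% and 84.9% of the sum of Pde4a, Pde4b, Pde4c and Pde4d in SDLN 1 to 3. Its shares in skin 1 to 4 were 82.1%, 51.3%, 46.5% and 40.5%. Pde4d made up 11.8% to 14.0% in SDLN, 13.7% in skin 1 and 27.9% to 42.9% in skin 2, 3 and 4. Skin 1 was thus close to the SDLN libraries in its Pde4b and Pde4d shares, as in those of Ptger2 and Ptger4, but its Pde4a share of 4.15% was above their 0.552% to 1.52%. The summed level was 28.5 to 29.2 CPM per kilobase in SDLN and 73.7, 62.0, 31.9 and 52.0 in skin 1 to 4, above SDLN in each. These shares are descriptions, with no test.

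**Figure D2:**
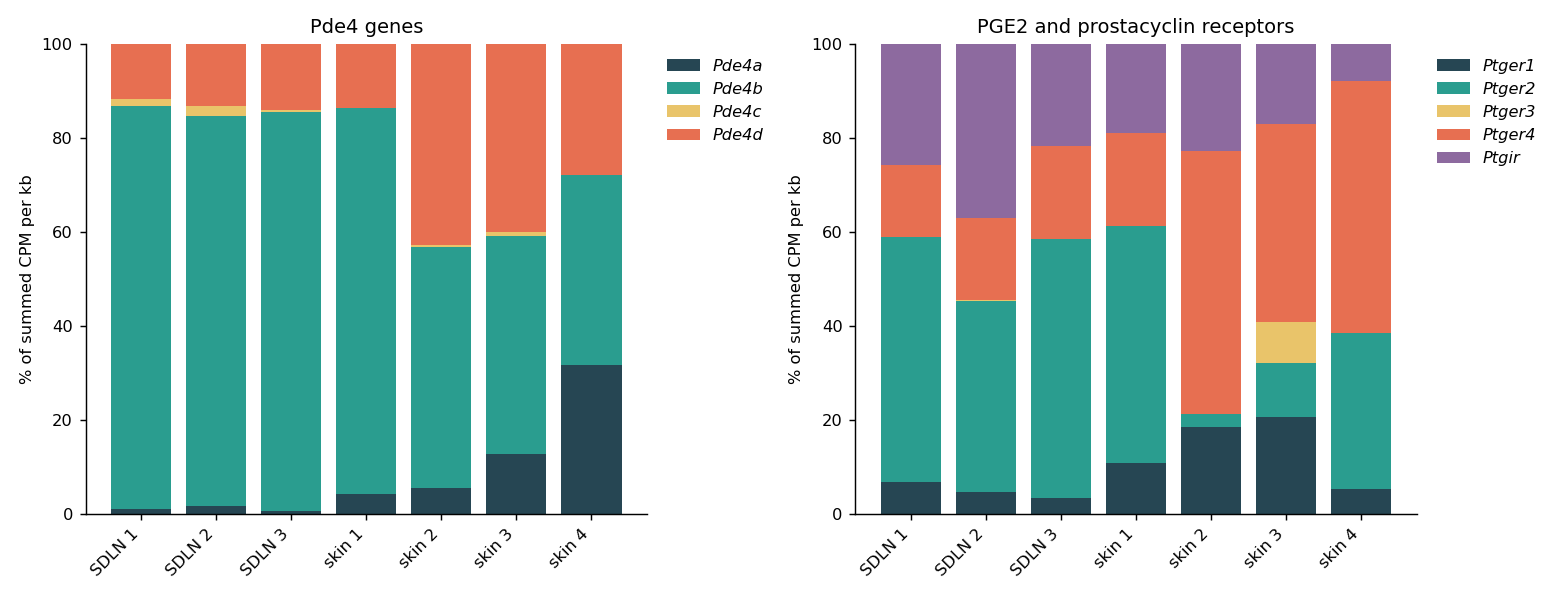
Bars give, for each of the 7 libraries (x axis), the percent of the summed CPM per kilobase of exon (y axis) held by each Pde4 gene (left) and by each prostaglandin E2 or prostacyclin receptor gene (right). Pde4b takes 83.2% to 85.8% of the left bars in SDLN and 40.5% to 51.3% in skin 2, 3 and 4; skin 1, at 82.1%, is close to SDLN.

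For Pde3b and Pde7a the skin libraries spread widely, on both sides of SDLN. Pde3b (chromosome 7, 114415281 to 114539251), a form inhibited by cyclic GMP, was at 7.26, 4.69 and 2.32 CPM in SDLN 1 to 3 and at 0.0920, 0, 2.47 and 16.8 CPM in skin 1 to 4. Skin 1 and skin 2 held 1 and 0 counts, and skin 4 was the highest of all libraries. A log2 fold change of 0.02 was fitted (SE 1.98, 95% interval -4.54 to 4.59, edgeR adjusted p = 0.997), and its sign changed with the processing.

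Pde7a (chromosome 3, 19223108 to 19311322), a cAMP-specific form of T cells, was at 17.2, 21.3 and 27.4 CPM in SDLN 1 to 3 and at 0.0920, 0.890, 8.29 and 55.2 CPM in skin 1 to 4. Skin 1, 2 and 3 were below every SDLN library, and skin 4 was above every one. For Pde7a the log2 fold change was -0.45 (SE 1.62, 95% interval -4.20 to 3.30, edgeR adjusted p = 0.941). Skin 4 was thus the highest skin library for Pde3b, Pde4a and Pde7a alike, as it was for Ptger2, Creb1 and Crem.

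Of 16 other genes listed as phosphodiesterases or by that name, 9 were tested, 0 rose and 1 fell. Those that rose numbered 0 with DESeq2 and limma-voom too, and 0 at an unadjusted p under 0.05 in edgeR. Pde11a, which degrades both cAMP and cyclic GMP, was the one that fell. It had 268 counts over the SDLN libraries (6.41 ± 1.56 CPM, SD, n = 3) and 1 count over the skin libraries. With counts pooled over libraries, SDLN exceeded skin 309-fold, with 54.9 to 12241 as the 95% interval for counting error alone. In edgeR its log2 fold change was -7.80 (95% interval -11.5 to -4.12, edgeR adjusted p = 0.0380). It did not pass without SDLN 1, SDLN 2 or SDLN 3 (adjusted p up to 0.356 over all alternatives). The list's median log2 fold change was 0.26.

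Crem (chromosome 18, 3266048 to 3337748) gave the clearest difference of the set. It was at 52.7, 59.1 and 80.9 CPM in SDLN 1 to 3 and at 725, 608, 602 and 843 CPM in skin 1 to 4. The lowest skin library was several times the highest SDLN library, and the skin libraries lay closer together, relative to their mean, than for any other gene of the set. The means were 64.2 ± 14.8 CPM (SD, n = 3) and 695 ± 114 CPM (SD, n = 4), a log2 fold change of 3.43 (SE 0.29, 95% interval 2.77 to 4.10, edgeR adjusted p = 0.00157), which ranked 14 among all genes tested. Crem passed under all 14 alternatives, with log2 fold changes of 3.30 to 3.62 and adjusted p of 1.91e-32 to 0.0432, including each library left out in turn. Its coefficient of variation in skin was 0.164, where the median over all genes tested was 0.7499 in skin and 0.187 in SDLN. In skin 3, with the highest keratinocyte and fibroblast markers, and in skin 4, with the highest macrophage and dendritic cell markers, Crem was at 602 and 843 CPM, and without either library the log2 fold change was 3.50 and 3.31. Macrophage and dendritic cell markers were at 206 to 227 CPM in skin 1, 2 and 3 too, above SDLN, and their part in the rise of Crem was not tested.

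Creb1 (chromosome 1, 64532645 to 64604548), the constitutive activator, was at 115, 137 and 120 CPM in SDLN 1 to 3 and at 177, 105, 203 and 287 CPM in skin 1 to 4. Skin 2 was below every SDLN library and the other skin libraries above. Skin over SDLN, its log2 fold change was 0.64 (SE 0.36, 95% interval -0.19 to 1.48, edgeR adjusted p = 0.427), so a rise of up to 2.78-fold is within the interval and the 10.8-fold difference of Crem is not. Per kilobase, the level of Crem divided by that of Creb1 was 1.07, 1.007 and 1.58 in SDLN 1 to 3. In skin 1 to 4 it was 9.55, 13.5, 6.91 and 6.84, with no overlap.

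**Figure D3:**
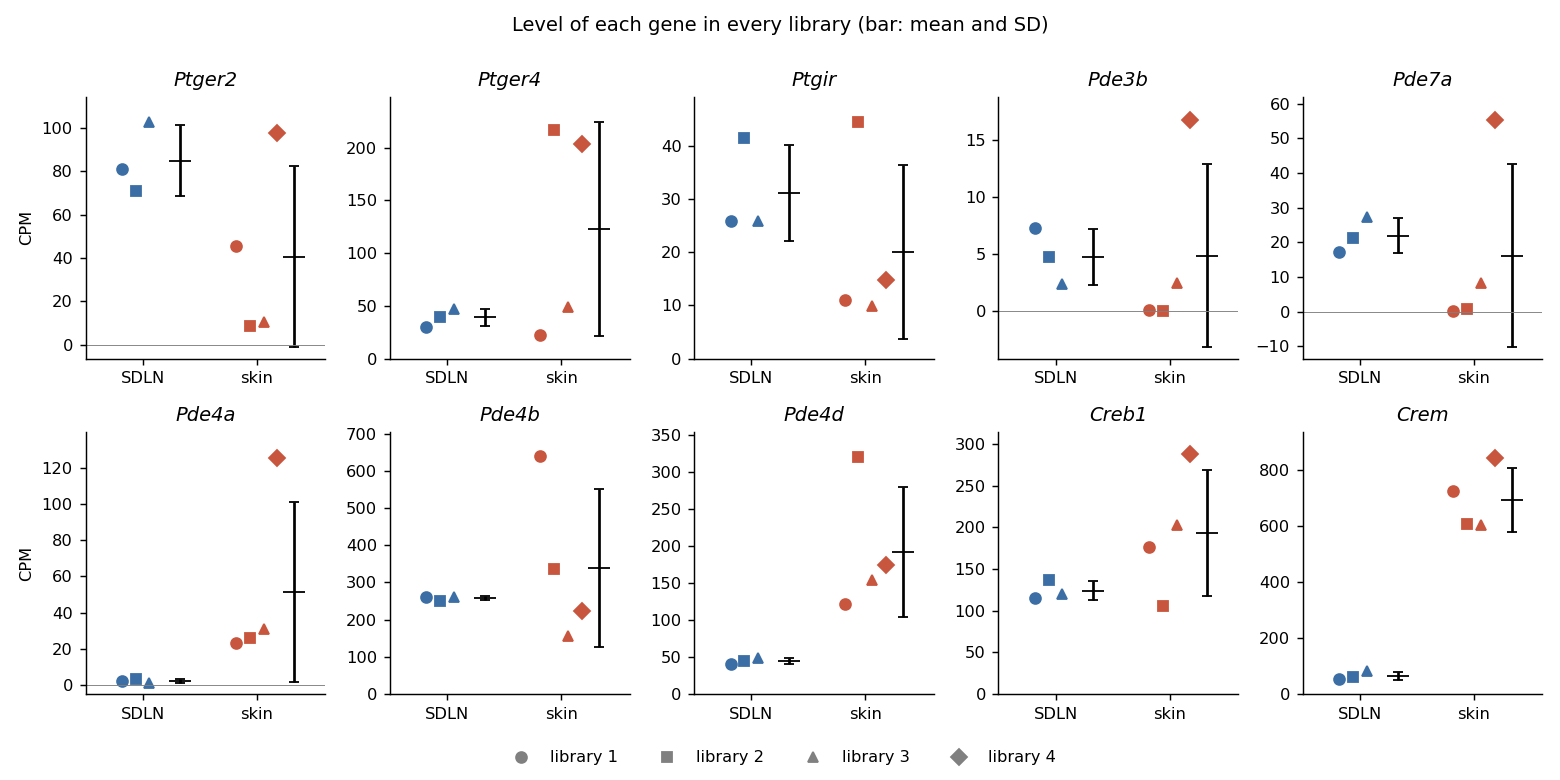
Each panel plots the CPM of 1 gene (y axis, linear) in the 3 SDLN (blue) and 4 skin (red) libraries. Marker shapes give the library number, a black bar gives the mean and SD, and equal numbers stand for no known pairing. The tissues are apart for Crem, Pde4d and Pde4a. The libraries of the tissues overlap for the other genes, as for Pde7a, where skin ran from 0.0920 to 55.2 CPM.

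Ordered by level per kilobase of exon, the SDLN means ran from Pde4a (0.290) and Pde3b (0.522) through Pde7a (2.84), Pde4d (3.75), Ptger4 (5.86), Creb1 (9.01), Ptgir (9.32), Crem (10.9) and Ptger2 (16.3) to Pde4b (24.4). Creb1 and Ptgir, Ptgir and Crem, and Pde4a and Pde3b, each pair neighbours in that order, differed by less than the larger of their SDs. In skin the order was Pde3b (0.530), Pde7a (2.08), Ptgir (6.00), Pde4a (6.71), Ptger2 (7.81), Creb1 (14.1), Pde4d (15.996), Ptger4 (18.5), Pde4b (32.1) and Crem (118). Crem stood above Pde4b by more than either SD (19.4 and 20.2 CPM per kilobase), while all other neighbours in skin differed by less than the larger of their SDs.

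Genes with the profile most like that of Crem were sought among the 7045 other tested genes whose mean reached 20 CPM, by the distance between centred log2 CPM over the 7 libraries. The nearest were Id2, an inhibitor of E-protein transcription factors, at a distance of 0.487, N4bp1, a regulator of NF-kappaB signalling, at 0.496, and Rgs11, of the family that speeds G protein inactivation, at 0.515. Their log2 fold changes were 3.50, 3.71 and 3.42, near that of Crem, so the likeness is mainly that of a large tissue difference with little spread in skin.

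The rest of the pathway was read from lists chosen with earlier results of these data known, so their counts are no independent evidence. The lists hold 107 further genes, of which 106 were in the table and 71 were tested. Of these 12 were called higher and 1 lower, against 3.28% higher and 3.96% lower of all genes tested. The 71 had a median log2 fold change of 0.64. Nearly all the higher genes belonged to 1 list, that of cAMP-induced feedback genes and CREB targets, many of which are immediate early genes that other signals, such as MAP kinase signalling, also induce. Of its 16 genes 14 were tested, 11 rose, 0 fell and 3 did not pass, with a median log2 fold change of 5.10; those that fell were 0 also with DESeq2 and limma-voom, and 0 at an unadjusted p under 0.05. The number that rose was 12 with DESeq2, 8 with limma-voom and 7 with the replicate block on 6 libraries. Over all genes, those called higher numbered 923 of 11376 with DESeq2, 271 of 11376 with limma-voom and 32 of 11197 with the block.

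Fos, the AP-1 subunit, was at 4.75, 3.73 and 5.95 CPM in SDLN 1 to 3 and at 1895, 2603, 747 and 1289 CPM in skin 1 to 4 (log2 fold change 8.41, edgeR adjusted p = 0.00127). Rgs2, which limits G protein signalling and adenylyl cyclase, was at 30.01 ± 6.67 CPM (SD, n = 3) and 617 ± 143 CPM (SD, n = 4) (log2 fold change 4.36, edgeR adjusted p = 0.00127). Nr4a1, an orphan nuclear receptor induced by cAMP and by T cell receptor signals, was at 101 ± 2.89 and 2064 ± 613 CPM (log2 fold change 4.35, edgeR adjusted p = 0.00127). These 3 were named because they had the smallest p-values of the list; the others that rose were Gem, Per1, Dusp1, Fosb, Nr4a2, Areg, Junb and Sik1. The 3 that did not pass were Nr4a3 (log2 fold change 5.62, edgeR adjusted p = 0.143), Btg2 (0.64, adjusted p = 0.184) and Egr1 (0.06, adjusted p = 0.987). With limma-voom Fos (adjusted p = 0.0549), Dusp1 (adjusted p = 0.111), Junb and Sik1 did not pass and Nr4a3 did. Without SDLN 1, 2 or 3 the genes of the list that rose numbered 8, 6 and 8, and without any 1 skin library 11. The summed macrophage and dendritic cell markers were also higher in skin, at 14.4 to 24.3 CPM in SDLN and 206 to 861 CPM in skin. Their part in the rise of this list was not tested. For Crem and for this list, any difference in cell preparation between the tissues cannot be told apart from the tissue itself.

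Of the 32 tested genes in the 3 lists between receptor and target genes, 1 was called higher and 0 lower in edgeR, or 3.12% higher, near the 3.28% of all genes tested. Of 14 adenylyl cyclase and G protein alpha genes 7 were tested, and Gnas, the stimulatory alpha subunit, rose. Beside Gnas, DESeq2 and weighted limma-voom called the inhibitory alpha subunit gene Gnai2 higher, and these and plain limma-voom the adenylyl cyclase gene Adcy6 lower. For Gnas, SDLN averaged 132 ± 15.5 CPM (SD, n = 3) and skin 458 ± 197 CPM (SD, n = 4) (log2 fold change 1.798, edgeR adjusted p = 0.0380). It did not pass without any 1 SDLN library, without skin 2 or without skin 4 (adjusted p up to 0.304 over all alternatives). Of 18 cAMP effectors, the kinase A subunits, anchoring proteins and exchange factors, 16 were tested and none passed in edgeR (1 higher and 1 lower at an unadjusted p under 0.05). The kinase A subunit gene Prkar1a was called higher by DESeq2, and Prkar1b lower by weighted limma-voom and without skin 3. The most abundant, the anchoring protein gene Akap13, was at 858 ± 63.6 and 1145 ± 229 CPM (log2 fold change 0.42, edgeR adjusted p = 0.410). Of 10 further CREB family and coactivator genes 9 were tested and none passed in edgeR, DESeq2 or limma-voom (0 at an unadjusted p under 0.05 in edgeR and DESeq2, 2 lower in limma-voom); Ep300 was called higher without skin 2. The coactivator Crebbp was at 201 ± 21.8 and 230 ± 117 CPM (log2 fold change 0.20, edgeR adjusted p = 0.896).

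Genes of prostanoid synthesis, transport and breakdown were mostly low in these cells. Of 15 listed, 8 were tested and none passed in edgeR (1 higher at an unadjusted p under 0.05). Ptgs1 was called higher by DESeq2 and without skin 1, and Ptgr1 without skin 2. The most abundant, the prostaglandin E synthase and co-chaperone gene Ptges3, was at 86.2 ± 13.3 CPM (SD, n = 3) and 122 ± 18.6 CPM (SD, n = 4) (log2 fold change 0.50, edgeR adjusted p = 0.461). Of 12 other receptors coupled to the stimulatory G protein 6 were tested and none passed in edgeR (1 higher at an unadjusted p under 0.05; none called by limma-voom or DESeq2). Vipr1 was called lower without skin 4 and by limma-voom with the weight, and Gpr65 higher without skin 2. Gpr65, a proton-sensing receptor, was at 131 ± 16.1 and 263 ± 102 CPM (log2 fold change 1.007, edgeR adjusted p = 0.178).

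**Figure D4:**
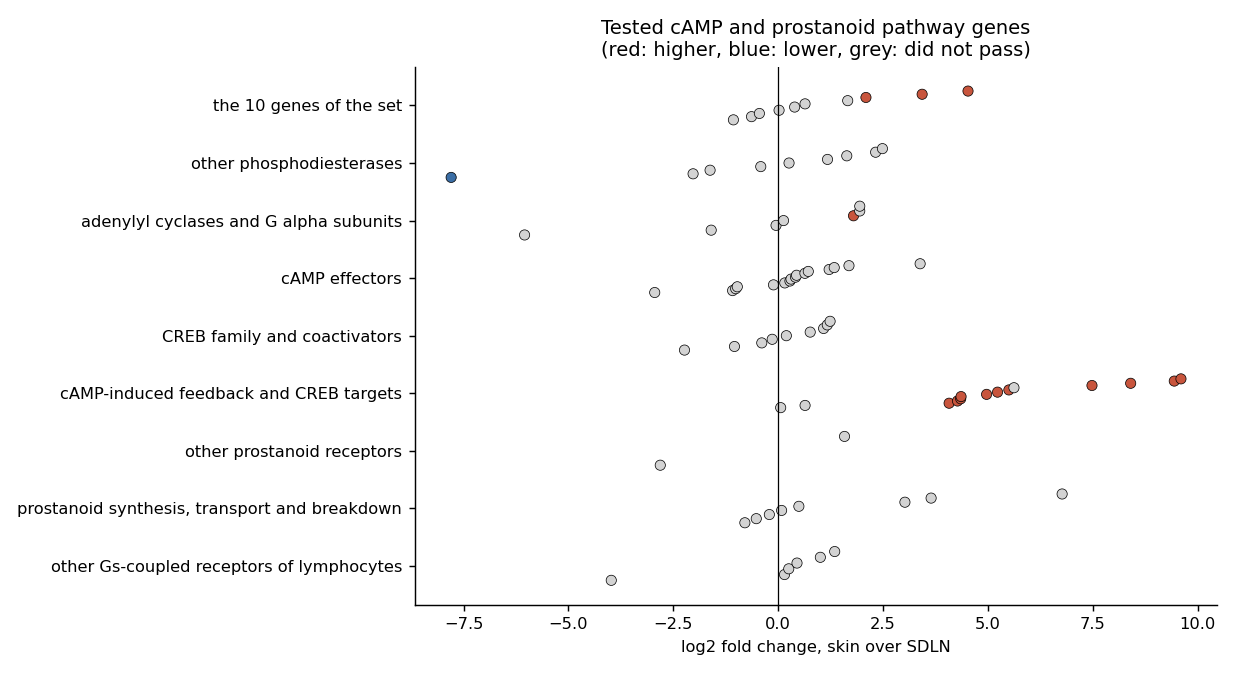
Every tested gene of the set and of the 8 other pathway lists (rows) is a point at its log2 fold change of skin over SDLN (x axis), red where called higher, blue where called lower and grey where the test was not passed. The row of feedback genes and CREB targets holds 11 red points, the set itself 3, and the adenylyl cyclase and G alpha row 1.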

How the data were processed

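Messenger RNA of 7 libraries was sequenced after column purification and SMARTer Ultra Low Input cDNA synthesis, per the labels' protocols. The authors deposited unnormalized counts of reads for each gene symbol. The submitters' processing notes name HTSeq 0.6.1, Bowtie2 2.1.0.0, TopHat2 2.0.12, CASAVA 1.8.2, SAMtools 0.1.19.0 and mm10. Not given in the sources used here are the annotation, the strand setting and the sort gates. Summary lines (61.2% to 70.4% of all counts for alignments to several places, 10.0% to 17.1% outside genes) were left out.

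Genes were kept by filterByExpr (minimum count 10) and compared with TMM scaling and edgeR 4.0.16's quasi-likelihood test in R 4.3.3 (robust, tissue alone, two-sided, all 7 libraries). The SE is the log2 fold change over the root of its F statistic. CPM use TMM-scaled totals, SDs are over libraries, and intervals and floors for counts cover counting error alone. Log2 CPM had a prior count of 2. Coordinates and exon lengths are from GENCODE M21 (build GRCm38, which mm10 names). Annotated antisense or pseudogene exons also overlap Crem, Pde7a, Ptger2 and Ptger4, so their counts are uncertain to that extent. The edgeR step was tested on simulated data.

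The 10 genes and the lists were chosen with earlier results of these data known. From each list up to 3 called genes with the smallest p in each direction, or else the most abundant gene, were named. Other genes named beside them were chosen after their values were seen. Alternatives were RLE or no scaling, no low-count filter, DESeq2 1.42.0, limma-voom (limma 3.58.1) without and with a variance weight per tissue, the replicate number as a block, and each library left out.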

Additional observations from a re-analysis of the deposited data

Results flagged for a closer look

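Outliers were sought among the 4 skin libraries by Dixon's test (at its 95% critical value) in 43 values, and 14 stood out, of which 4 were genes of the set. The nominal rate of 1 in 20 holds for independent, normally distributed values. These CPM include zeros, and marker sums share genes with values tested singly, so that rate is no yardstick for the 14. Skin 4 was far above the other skin libraries for Pde3b (16.8 CPM), Pde4a (126 CPM) and Pde7a (55.2 CPM), and skin 2 for Ptgir (44.4 CPM). Skin 2 also held the sole skin counts of Tbxa2r (7.60 CPM). Skin 4 also stood apart for Id2 (1431 CPM), for the dendritic cell marker Cd209a (265 CPM), for Pde11a, where it held the sole count (0.0713 CPM), and for the summed markers of CD8 and NK cells (91.6 CPM) and of macrophages and dendritic cells (861 CPM). Skin 3 stood apart for low T cell and Treg markers (8914 CPM), for high keratinocyte markers (718.5 CPM) and fibroblast and endothelial markers (2071 CPM), and for Hpgd, the enzyme that breaks down prostaglandins (130.4 CPM, with 2.71 CPM in skin 4 and 0 counts in the other 5 libraries).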

How the results depend on the processing

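Genes of the set called higher numbered 1 without the low-count filter and 1 with the replicate block on 6 libraries, and 1 to 3 with each library left out (the 1 being Crem, and 1 without any of the 3 SDLN libraries); none was called lower under any alternative. Pde4a also did not pass with limma-voom. Over all genes the numbers higher and lower were 188 and 70 without the filter, 32 and 10 with the replicate block, 923 higher with DESeq2, 729 lower with limma-voom, 594 and 987 with a variance weight per tissue, and 33 to 582 and 9 to 822 with each library left out. The log2 fold change of Pde3b turned to -0.0068 with RLE, -0.015 without the filter, -0.0071 with DESeq2, -2.69 and -2.68 with limma-voom without and with the weight, -5.04 with the block, and ran from -2.51 to 0.44 with each library left out; that of Pde4b ran from -0.11 to 0.63. The other 8 genes kept their direction in all 14 alternatives; the causes were not tested. RLE and unscaled libraries moved the median of all genes by -0.0067 and -0.0057. Deviations of same-numbered libraries from their tissue means correlated at r = 0.067, -0.0018 and -0.040 across genes. From 3 SDLN and 4 skin libraries such values can neither show nor exclude a pairing. SDLN 3 and skin 3 differed in Ddx3y (3877 and 2 counts) and Xist (4 and 10335 counts), so number 3 marks no shared animal. The block stands for no known pairing.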
